A study of Mus musculus with 11 samples.

Results

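The 10 genes described here, Cpm, Klhl14, Lrrk2, Slc14a1, Sertad4, Edaradd, Wfdc21, Vpreb3, Tmem26 and Nxpe2, were among those with the largest drop in signal when mouse B cells were stimulated through their antigen receptor. They were chosen by the size of that difference on these same arrays, which is therefore described below with no test. Every probe set that the platform annotation assigns to exactly 1 of these symbols was read apart, which gave 18 probe sets of 45037 tested, for 10 genes of 18193 with a symbol of their own. Edaradd has 5 probe sets, Cpm, Slc14a1, Tmem26 and Nxpe2 have 2 each, and the other 5 genes have 1 each.

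B cells came from spleens of females 6 weeks old. They were kept in culture for 2 h with goat F(ab')2 anti-mouse IgM at 10 µg/ml, which cross-links the receptor, or in medium without it (unstimulated). The mice were NOD (NOD/ShiLtJ), a strain that becomes diabetic through autoimmunity, or NR4 (NOD.NOR-Chr4/DvsJ), a NOD congenic strain that carries chromosome 4 material of the NOR strain. Each lot pooled 7 to 8 spleens, B cells were enriched by magnetic removal of other cells, and each strain had 3 lots. The 11 Affymetrix whole-genome expression arrays are 2 of NOD anti-IgM cells, 3 of NOD unstimulated cells, 3 of NR4 anti-IgM cells and 3 of NR4 unstimulated cells. Stimulated and unstimulated cells of a strain share their lots. The main model took the 11 arrays as separate, with no term for the lot. Its p-values rest on the spread between arrays of a group and leave out any pairing of conditions by lot. Strain differences averaged over both conditions count arrays of the same lot as separate.

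IgM on the surface of a resting B cell signals through kinases of the SYK and SRC families to calcium, ERK and NF-kB, and antibody that cross-links it starts this cascade. Immediate-early genes then rise quickly, while a second group of transcripts that mark the resting state is lost. The level of a transcript after such a short culture reflects both its synthesis and its decay, which arrays do not separate.

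Signals are RMA values taken as log2, and each probe set was centred on its median over the 11 arrays, so they compare arrays for 1 probe set and say nothing of how abundant a transcript was. For the same reason the labelled cell type could not be checked against the level of its markers. Where all 6 unstimulated arrays lay above all 5 stimulated ones, the value 0 marks the lowest unstimulated array. In bulk RNA, fewer cells of a type and less RNA per cell cannot be told apart. The stimulus was seen in the immediate-early and chemokine genes, of which 13 of 18 had a probe set that rose averaged over the strains. Of their 27 probe sets 14 rose and 0 fell (limma, Benjamini-Hochberg adjusted p under 0.05, which 0.422% of all probe sets passed as higher). The smallest p were those of Egr2 at 1.31 (SE 0.07), Rgs1 at 1.60 (SE 0.13) and Ccl4 at 1.73 (SE 0.14). One array stood apart technically. The 3' over 5' difference of the Gapdh and actin control transcripts was 0.96 log2 units on NR4 anti-IgM replicate 1. Like all values here it is centred, and so relative to the other arrays. The other anti-IgM arrays lay at 0.04 to 0.23. NR4 unstimulated replicate 3 lay at 0.29, and the other unstimulated arrays at -0.08 to -0.01, below every anti-IgM array. The measure thus differed between the conditions on most arrays, and its part in the responses was not tested.

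Promoters of 7 of the 10 genes (not Klhl14, Slc14a1 or Wfdc21) were read from the RefSeq promoter table (GRCm38.p6), 8 windows in all since Sertad4 has 2, each running from 250 bases before to 50 after a start of transcription. The windows of 3 genes are shown, Vpreb3 for its octamer motif, and Cpm and Nxpe2 because they were among the lowest in response and differ in base composition. Capitals mark the octamer ATTTGCAT, which OCT2 binds with the B cell coactivator OBF1, and the core CCCNNGGG of sites of the B cell factor EBF1, both searched on both strands.
Vpreb3, chr10:75948050-75948349, + strand: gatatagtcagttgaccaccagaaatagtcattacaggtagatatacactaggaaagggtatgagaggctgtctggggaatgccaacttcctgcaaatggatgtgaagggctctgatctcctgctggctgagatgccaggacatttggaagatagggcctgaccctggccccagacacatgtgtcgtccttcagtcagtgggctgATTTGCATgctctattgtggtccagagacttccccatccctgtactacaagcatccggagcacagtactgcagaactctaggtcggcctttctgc
Cpm, chr10:117629250-117629549, + strand: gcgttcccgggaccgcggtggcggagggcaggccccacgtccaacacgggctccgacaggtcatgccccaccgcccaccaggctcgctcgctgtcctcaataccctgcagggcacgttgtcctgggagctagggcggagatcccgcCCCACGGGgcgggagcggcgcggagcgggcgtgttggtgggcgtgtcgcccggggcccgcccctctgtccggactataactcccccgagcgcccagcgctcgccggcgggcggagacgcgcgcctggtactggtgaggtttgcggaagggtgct
Nxpe2, chr9:48340849-48341148, - strand: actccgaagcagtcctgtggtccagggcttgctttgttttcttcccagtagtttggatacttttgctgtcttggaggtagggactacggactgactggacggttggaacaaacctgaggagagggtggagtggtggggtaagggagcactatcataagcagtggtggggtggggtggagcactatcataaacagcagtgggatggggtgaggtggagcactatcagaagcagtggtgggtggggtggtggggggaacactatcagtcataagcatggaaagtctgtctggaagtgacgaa
The octamer of Vpreb3 starts 45 bases before the start of transcription. It was found in 1 of the 8 windows and in 1.74% of 32851 promoter windows of the same length. The EBF1 core was found in 3 of the 8 windows, those of Cpm, Tmem26 and Sertad4 (chr1:192855703-192856002), and in 13.7% of all windows. In Cpm it starts 104 bases before the start of transcription. No window held the NF-kB pattern GGANTTTCC (1.25% of all windows), the E box CAGGTG (20.2%), the FOXO site TGTTTAC (3.65%), the PU.1 site GAGGAAGT (3.2%), the AP-1 site TGANTCA (7.81%) or the CRE TGACGTCA (1.79%), all searched on both strands. G and C made up 73.7% of the Cpm window, which held 37 CpG dinucleotides, against 53.3% and 4 in Nxpe2 and 51.0% and 3 in Vpreb3. No searched motif was common to the windows, and a motif that was not found is only not spelled in these letters in these bases.

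Of the 18 probe sets 15 were lower by at least 2-fold after anti-IgM averaged over the strains, with at least 1 for each of the 10 genes. Over all probe sets 0.129% (58) were. At least 2-fold lower were 13 in NOD (0.091% of all) and 15 in NR4 (0.351% of all). In 14 of the 18 all 5 anti-IgM arrays lay below all 6 unstimulated arrays, against 2.12% of all probe sets. Within NOD and within NR4 the arrays were apart in this direction in 16 of 18 each (11% and 7.44% of all). Because this contrast chose the genes, nothing is read from these shares. The median of the 18 probe sets was -1.54 log2 units, or 2.91-fold lower, beside 0.0045 over all probe sets. Without NR4 anti-IgM replicate 1 there were again 15 probe sets past 2-fold (0.149% of all), and in 15 the remaining 4 anti-IgM arrays lay below the 6 unstimulated ones (2.8% of all). The 4 probe sets of the whole array that were lower by at least 4-fold all belong to these genes, 1 each of Edaradd, Cpm, Nxpe2 and Slc14a1.

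**Figure D1:**
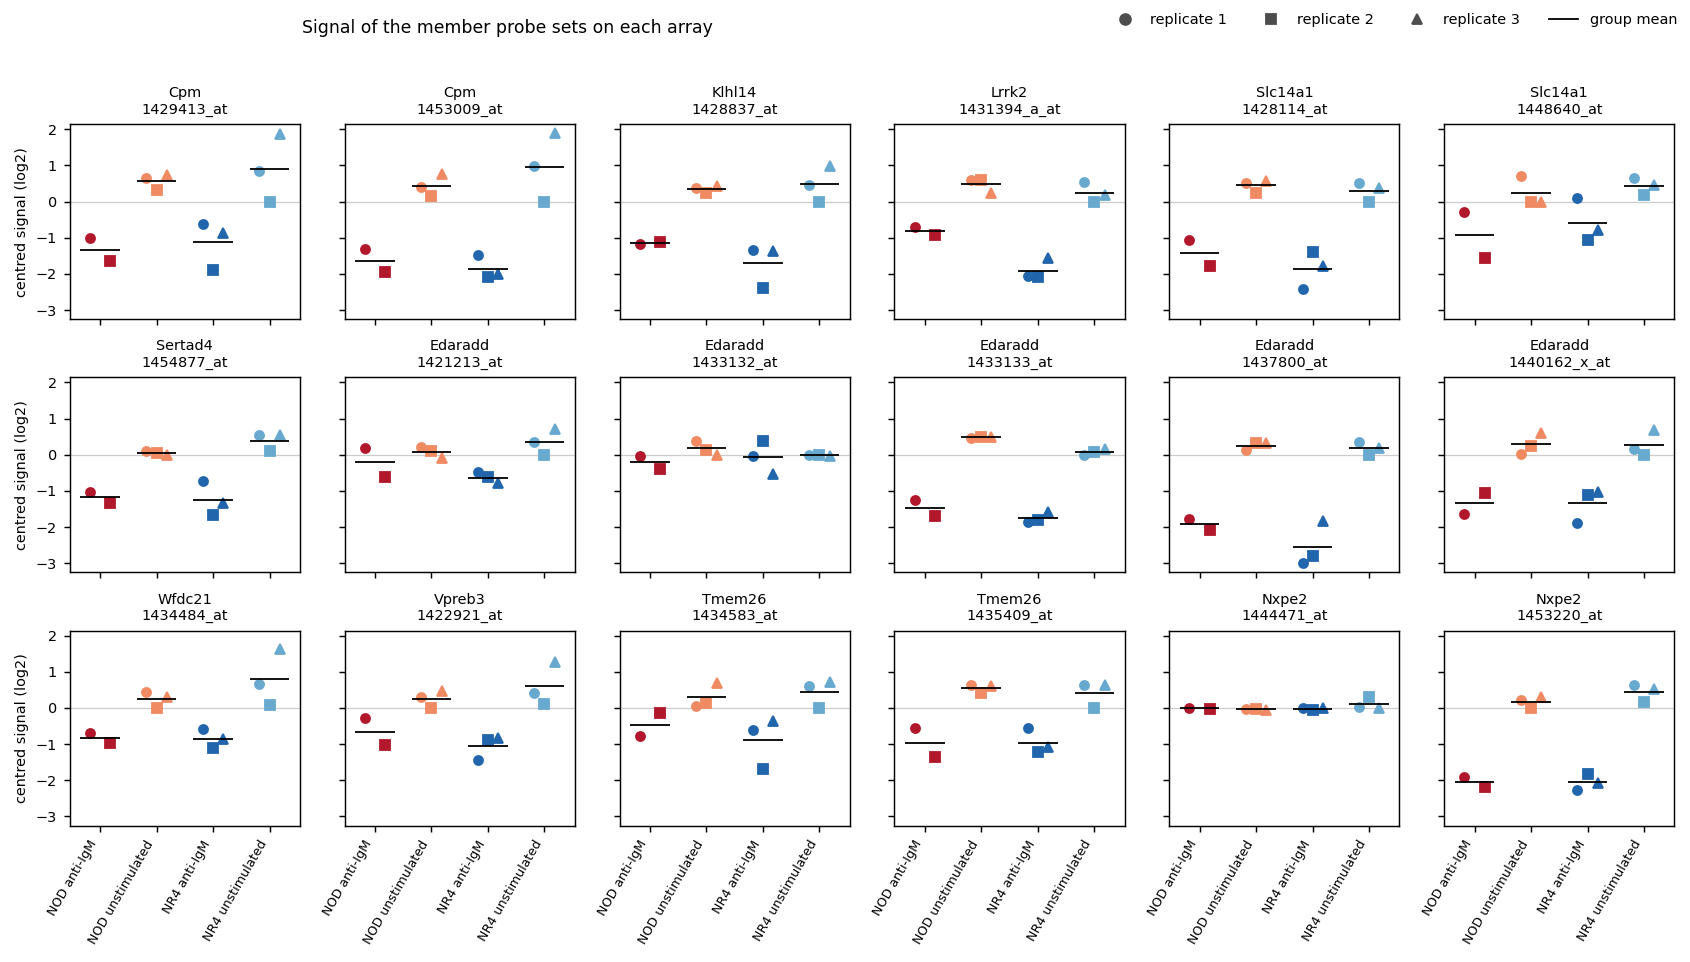
Centred log2 signal (y axis) of each of the 18 probe sets on every array, in the 4 groups (x axis). Points are arrays, with the shape giving the replicate number, and lines are group means. In 14 panels all 5 anti-IgM arrays lie below all 6 unstimulated arrays, while Edaradd 1433132_at and Nxpe2 1444471_at show no such step.

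Of the 10 genes 4 encode proteins of the cell surface or other membranes. Cpm encodes carboxypeptidase M, an enzyme anchored in the plasma membrane by a lipid that clips arginine or lysine from the end of peptides such as kinins and anaphylatoxins. Its probe set 1453009_at read -1.30 and -1.96 in NOD anti-IgM cells, against 0.40, 0.14 and 0.75 in NOD unstimulated cells. In NR4 it read -1.48, -2.09 and -2.0 with anti-IgM, against 0.98, 0.00 and 1.89 unstimulated. The groups did not overlap in either strain, and the unstimulated NR4 arrays were the most spread. The difference averaged -2.44 (SE 0.31), or 5.42-fold, with -2.06 (SE 0.46) in NOD and -2.82 (SE 0.41) in NR4. Probe set 1429413_at, made against another transcript, gave -1.96 (SE 0.34). The 2 probe sets correlated at 0.97 over the 11 arrays, which includes the anti-IgM difference that chose the gene. Their deviations within groups correlated at 0.91.

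Nxpe2, a member of the neurexophilin and PC-esterase domain family, had the widest step. Probe set 1453220_at read -1.90 and -2.20 in NOD anti-IgM cells, against 0.22, 0.00 and 0.29 in NOD unstimulated cells, and -2.26, -1.84 and -2.07 in NR4 anti-IgM cells, against 0.64, 0.17 and 0.51 in NR4 unstimulated cells. Its lowest unstimulated array was 1.84 log2 units above its highest anti-IgM array, the widest such gap of the 18. The difference was -2.36 (SE 0.12), or 5.13-fold, and in NOD, at -2.22 (SE 0.18), it was the lowest of all 45037 probe sets. The other probe set of the gene, 1444471_at, lay between -0.07 and 0.29 on all 11 arrays and differed by -0.05 (SE 0.08). Without levels, a probe set that does not detect the transcript cannot be told from a part of the gene that did not change.

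Slc14a1 encodes the urea transporter of red blood cells and of kidney vessels, which in humans carries the Kidd blood group. Probe set 1428114_at read -1.07 and -1.79 in NOD anti-IgM cells, against 0.51, 0.24 and 0.58 in NOD unstimulated cells, and -2.42, -1.39 and -1.78 in NR4 anti-IgM cells, against 0.52, 0.00 and 0.36 in NR4 unstimulated cells. The difference was -2.02 (SE 0.20), or 4.05-fold. Probe set 1448640_at differed by less, -1.08 (SE 0.28), and its anti-IgM and unstimulated arrays overlapped when the strains were pooled. The 2 probe sets were far apart on NR4 anti-IgM replicate 1, the array with the raised 3' over 5' difference, which was the lowest of all 11 for 1428114_at at -2.42 and lay at 0.09 for 1448640_at. Within groups the 2 probe sets did not vary together (correlation of deviations 0.007 over 11 arrays, beside 0.70 for the values themselves). The 10 probe sets of the erythroid marker list, which includes Alas2, the heme synthesis enzyme of red cells, had a median response of 0.02 and 0 passed, and their mean was -0.10 to 0.02 in NOD anti-IgM, -0.03 to 0.07 in NOD unstimulated, 0.04 to 0.13 in NR4 anti-IgM and -0.02 to 0.03 in NR4 unstimulated arrays.

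Tmem26 encodes a protein that spans the membrane several times and is known as a marker of beige fat cells. Its probe set 1435409_at read -0.56 and -1.37 in NOD anti-IgM cells, against 0.64, 0.42 and 0.60 in NOD unstimulated cells, and -0.56, -1.23 and -1.09 in NR4 anti-IgM cells, against 0.63, 0.00 and 0.64 in NR4 unstimulated cells. These values gave a difference of -1.45 (SE 0.19), or 2.73-fold. The second probe set, 1434583_at, gave -1.04 (SE 0.26), with a gap of only 0.15 log2 units between the lowest unstimulated and the highest anti-IgM array.

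A further 3 encode a kinase or adaptors of signalling. Lrrk2 is a large protein with kinase and GTPase domains that phosphorylates Rab GTPases, and variants of human LRRK2 cause Parkinson's disease. Its probe set 1431394_a_at read -0.70 and -0.92 in NOD anti-IgM cells, against 0.58, 0.60 and 0.23 in NOD unstimulated cells. In NR4 it read -2.07, -2.10 and -1.57 with anti-IgM, against 0.53, 0.00 and 0.17 unstimulated. Unstimulated arrays of the strains overlapped, whereas the NOD anti-IgM arrays were all higher than the NR4 anti-IgM arrays. Lrrk2 was 2.43-fold lower in NOD and 4.43-fold lower in NR4, a contrast between the strains that is tested below.

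Edaradd encodes the death domain adaptor that links the ectodysplasin receptor EDAR to NF-kB, a pathway known from hair, teeth and sweat glands. Its 5 probe sets did not agree. Probe set 1437800_at had the lowest averaged difference of the whole array, -2.45 (SE 0.19) or 5.48-fold, with -1.78 and -2.07 in NOD anti-IgM cells, against 0.13, 0.31 and 0.31 in NOD unstimulated cells, and -3.01, -2.80 and -1.84 in NR4 anti-IgM cells, against 0.34, 0.00 and 0.20 in NR4 unstimulated cells. Probe sets 1433133_at and 1440162_x_at were 3.70-fold and 3.10-fold lower. Each correlated with 1437800_at over the arrays (0.98 and 0.93), which largely reflects the anti-IgM difference that chose the gene. Within groups their deviations correlated with those of 1437800_at at 0.64 and 0.44, and with each other at 0.085. Probe set 1421213_at differed by -0.63 (SE 0.17), with overlapping groups in NOD, and 1433132_at by -0.21 (SE 0.16). The annotation gives 1433132_at and 1433133_at the same source transcript, yet the second read -1.25 and -1.68 in NOD anti-IgM cells, against 0.47, 0.50 and 0.49 in NOD unstimulated cells, while the first read -0.03 and -0.38 in NOD anti-IgM cells, against 0.39, 0.13 and 0.00 in NOD unstimulated cells. Only 3 of the 5 probe sets of Edaradd were thus lower by at least 2-fold, and 1 of them is of the _x_at type, which can also bind other transcripts.

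Klhl14 belongs to the BTB-kelch proteins, adaptors of CUL3 ubiquitin ligases, and its human counterpart has been tied to turnover of the B cell receptor in lymphoma cells. Its only probe set, 1428837_at, read -1.19 and -1.12 in NOD anti-IgM cells, against 0.38, 0.24 and 0.43 in NOD unstimulated cells, and -1.35, -2.39 and -1.38 in NR4 anti-IgM cells, against 0.45, 0.00 and 0.97 in NR4 unstimulated cells. It was 3.58-fold lower (-1.84, SE 0.22), and NR4 anti-IgM replicate 2 was the lowest array.

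Vpreb3 and Wfdc21 encode small proteins of the secretory pathway. Vpreb3 binds immunoglobulin chains inside B lineage cells and is related to the surrogate light chain of precursor B cells. It read -0.29 and -1.04 in NOD anti-IgM cells, against 0.30, 0.00 and 0.46 in NOD unstimulated cells, and -1.43, -0.88 and -0.83 in NR4 anti-IgM cells, against 0.42, 0.11 and 1.27 in NR4 unstimulated cells. The gap between the conditions was narrow, 0.29 log2 units, and the difference was -1.28 (SE 0.23), or 2.43-fold.

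Wfdc21 encodes a protein with a WAP domain, a fold held by disulfide bonds that occurs in secreted protease inhibitors. Its values were -0.70 and -0.98 in NOD anti-IgM cells, against 0.43, 0.00 and 0.29 in NOD unstimulated cells, and -0.58, -1.11 and -0.87 in NR4 anti-IgM cells, against 0.65, 0.08 and 1.63 in NR4 unstimulated cells. The difference was -1.36 (SE 0.25), or 2.57-fold. The 9 probe sets of the neutrophil marker list, among them S100a8 and Ngp, had a median response of -0.02, and 0 passed. Their mean was -0.13 to -0.01 in NOD anti-IgM, -0.13 to 0.18 in NOD unstimulated, -0.04 to 0.18 in NR4 anti-IgM and -0.19 to 0.19 in NR4 unstimulated arrays, so the ranges overlapped in both strains.

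Sertad4 encodes a protein with a SERTA domain, a motif shared with regulators of E2F transcription. It read -1.04 and -1.32 in NOD anti-IgM cells, against 0.09, 0.06 and 0.00 in NOD unstimulated cells, and -0.74, -1.68 and -1.33 in NR4 anti-IgM cells, against 0.53, 0.11 and 0.53 in NR4 unstimulated cells. The difference was -1.44 (SE 0.16), or 2.70-fold, and all anti-IgM arrays lay below all unstimulated ones.

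**Figure D2:**
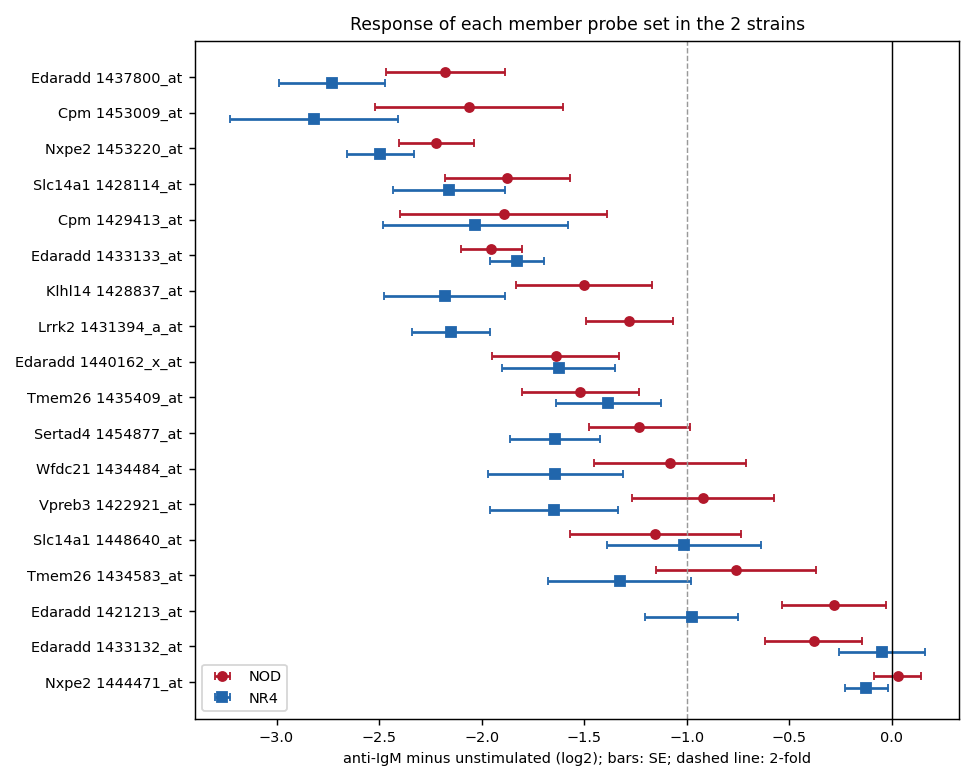
Response of each probe set (rows), as anti-IgM minus unstimulated in log2 units (x axis) with its SE, in NOD (circles, 2 arrays against 3) and NR4 (squares, 3 against 3). The 15 probe sets past 2-fold on average span -2.45 to -1.04, and 3 probe sets of Edaradd and Nxpe2 lie nearer to 0.

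The strain of the cells was not used to choose these genes and was tested. Between NOD unstimulated and NR4 unstimulated cells 0 of the 18 probe sets passed (limma, adjusted p under 0.05), where 0.0577% of all probe sets did, and 1 of the 18 had an unadjusted p under 0.05, where 1.53% of all did. That one was Edaradd 1433133_at, higher in NOD by 0.40 (SE 0.13, limma adjusted p = 1). NOD and NR4 arrays were apart in 3 of the 18 when unstimulated (6.35% of all probe sets), those of Sertad4, Edaradd 1433133_at and Nxpe2 1444471_at. With anti-IgM they were apart in 2 of the 18 (14.1% of all), those of Klhl14 and Lrrk2. Averaged over both conditions 0 of 18 passed again (0.118% of all), with 2 of 18 at an unadjusted p under 0.05 (4.14% of all). They were Edaradd 1433133_at at 0.34 (SE 0.10, limma adjusted p = 0.83) and Lrrk2 at 0.67 (SE 0.14, limma adjusted p = 0.32).

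The response itself did not pass a test of difference between the strains for any of the 18 probe sets, nor for any other probe set (0% of all, limma interaction, with and without the replicate number as a block). At an unadjusted p under 0.05 there was 1 of the 18, Lrrk2, where 1.59% of all probe sets were. The response of Lrrk2 was -1.28 (SE 0.21) in NOD and -2.15 (SE 0.19) in NR4, a difference of 0.87 with a 95% interval of 0.23 to 1.5 (limma adjusted p = 1). The estimate was lower in NR4 than in NOD for 13 of the 18 probe sets and for 22216 of all 45037. The intervals were wide: for Cpm 1453009_at the difference was 0.76 (95% interval -0.62 to 2.13), for Vpreb3 0.73 (-0.31 to 1.77), for Klhl14 0.68 (-0.31 to 1.67) and for Nxpe2 1453220_at 0.27 (-0.27 to 0.82). Leaving out 1 array moved these 4 estimates by over 1.5 times. Cpm was at 0.29 without NR4 unstimulated replicate 3 and 1.23 without replicate 2, Klhl14 at 0.34 without NR4 anti-IgM replicate 2 and 0.91 without NR4 unstimulated replicate 2. Vpreb3 and Nxpe2 were at 0.35 and 0.13 without NOD anti-IgM replicate 1, and at 1.10 and 0.42 without replicate 2. Quantile normalization put Nxpe2 at 0.87 and Cpm at 1.34, and Lrrk2 lay between 0.60 and 1.04 over all settings. Differences of 2-fold in response are thus within the interval for Cpm, Vpreb3, Klhl14 and Lrrk2, and also for other probe sets such as those of Wfdc21 and Edaradd 1437800_at. Equal responses are not shown.

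**Figure D3:**
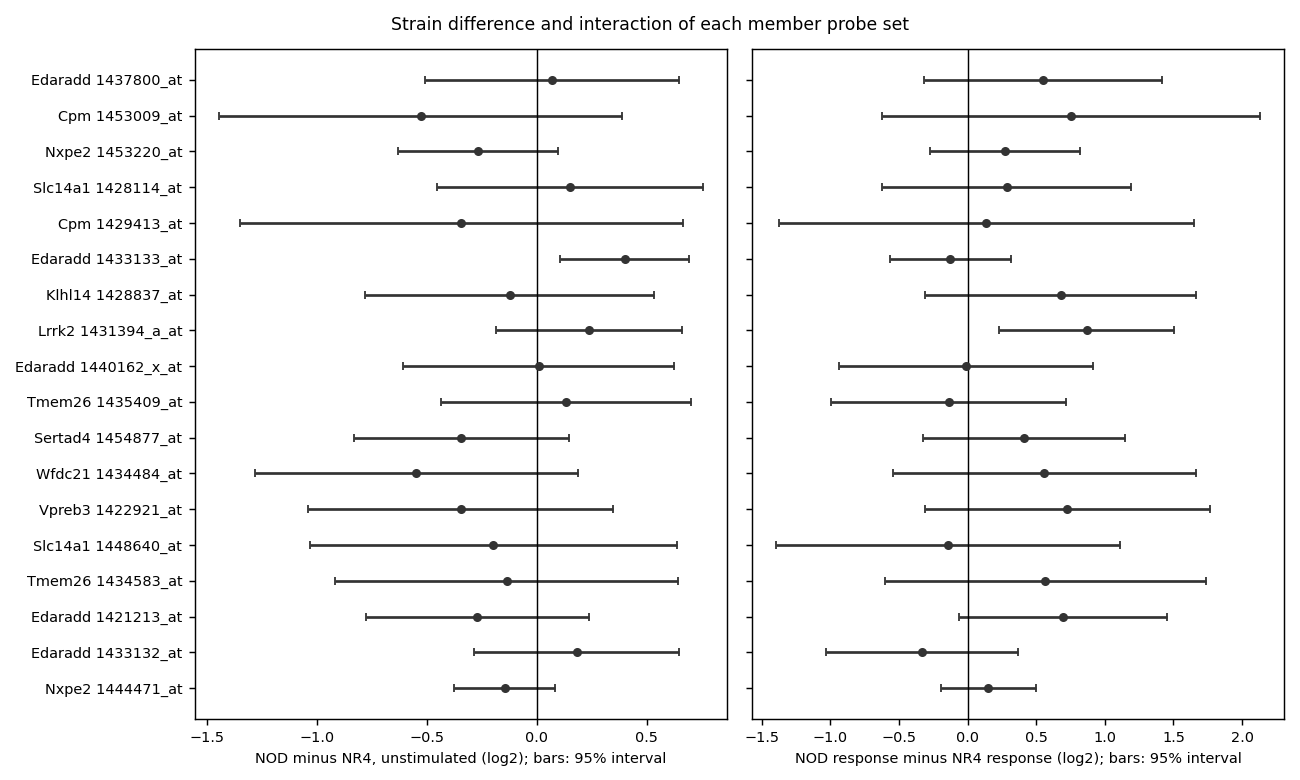
Difference between NOD unstimulated and NR4 unstimulated cells (left) and between the NOD and the NR4 response (right) for each probe set, in log2 units with 95% intervals from the limma fit. No probe set passed after adjustment, and Lrrk2 had the largest interaction estimate, 0.87.

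Within groups the genes varied together to different degrees. Deviations from the group means, with each gene read as the median of its probe sets past 2-fold, correlated positively in 41 of 45 pairs of genes over the 11 arrays, with a median of 0.36 and a range of -0.11 to 0.96. These points share their arrays, so the correlations describe the arrays and carry no test. The closest pairs were Cpm with Wfdc21 at 0.96, Klhl14 with Tmem26 at 0.92 and Cpm with Klhl14 at 0.83. Nxpe2 followed Vpreb3 at 0.70 and Slc14a1 at 0.64 but lay at -0.08 with Klhl14, and Edaradd was at 0.55 with Vpreb3 and -0.08 with Sertad4. For Lrrk2 the values ran from 0.10 with Wfdc21 to 0.39 with Slc14a1. The median SD of the 18 probe sets was 0.35 in NOD anti-IgM, 0.19 in NOD unstimulated, 0.40 in NR4 anti-IgM and 0.31 in NR4 unstimulated cells, beside 0.15 in NOD anti-IgM, 0.15 in NOD unstimulated, 0.23 in NR4 anti-IgM and 0.16 in NR4 unstimulated cells over all probe sets. Among the stimulated arrays NOD replicate 1 was the highest of 5 for 8 of the 18 probe sets (23.5% of all) and NR4 replicate 2 the lowest for 8 (24.5% of all). Among the unstimulated NR4 arrays replicate 3 was the highest of the 6 unstimulated arrays for 9 of the 18 probe sets and replicate 2 the lowest for 9. Over all probe sets these arrays were highest in 18.7% and lowest in 16.3%. Without the 3 unstimulated NR4 arrays 33 of 45 pairs were positive and the median was 0.18, with Cpm and Wfdc21 still at 0.90. The B cell marker list moved the same way: its mean was -0.11 on NR4 unstimulated replicate 2 and 0.36 on replicate 3, the lowest and highest of the unstimulated arrays, and its part in the spread of the genes was not tested.

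**Figure D4:**
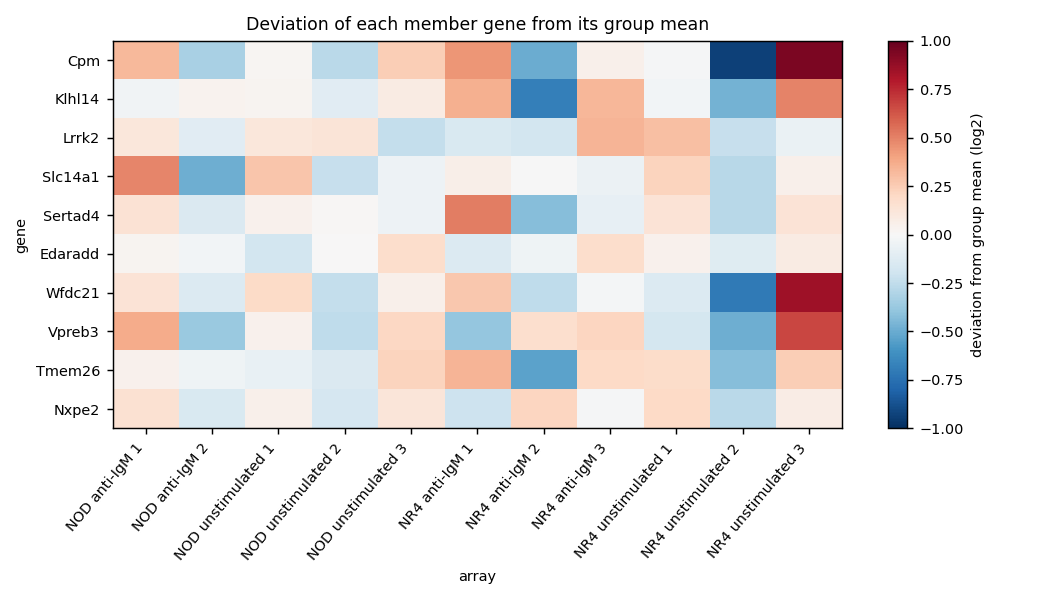
Deviation of each gene (rows) from its group mean on every array (columns), in log2 units by colour. NR4 unstimulated replicate 2 is low and replicate 3 high for Cpm, Wfdc21, Vpreb3 and Klhl14, while Lrrk2 and Edaradd show little of this.

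Some of the B cell markers also fell with the stimulus. Of 17 probe sets for 10 B cell marker genes, 5 fell and 0 rose (limma), where 0.591% of all probe sets passed as lower and 1.01% in either direction, and the median was -0.46. These 5 belong to Cd37, Cd79b, Fcrla and Ms4a1, with 2 for Ms4a1. The other 12 did not pass, among them further probe sets of Fcrla and Cd37 1419206_at at -0.27 (SE 0.08). Blk, at 0.10 (SE 0.10), and Pax5, at 0.06 (SE 0.16) and 0.00 (SE 0.09), were not lower. The list mean was -0.38 to -0.09 in NOD anti-IgM, 0.13 to 0.18 in NOD unstimulated, -0.50 to -0.27 in NR4 anti-IgM and -0.11 to 0.36 in NR4 unstimulated arrays. The marker with the lowest value, Cd22 1419769_at at -1.05 (SE 0.24), did not pass (limma adjusted p = 0.078). The part of the B cell markers in the values of the 10 genes was not tested. Across the T cell, NK, monocyte, neutrophil, erythroid, plasma cell and dendritic cell lists no probe set fell, and 1 each rose for Cd5, Irf4 and Itgax.

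Relatives of the 10 genes were read over 9 lists of family and pathway genes. Of their 264 probe sets 3 (1.14%), for 3 genes, passed the threshold of the averaged response in either direction, a share near the 1.01% of all probe sets. In the list of BTB-kelch proteins and their CUL3 partners 2 of 20 measured genes fell and 0 rose, Klhl42 at -0.86 (SE 0.14, limma adjusted p = 0.026) and Klhl6, a gene needed for normal antigen responses of B cells, at -0.61 (SE 0.11, limma adjusted p = 0.032). Klhl6 read -0.32 and -0.37 in NOD anti-IgM cells, against 0.17, 0.09 and 0.17 in NOD unstimulated cells, and -0.65, -0.51 and -0.42 in NR4 anti-IgM cells, against 0.08, 0.00 and 0.53 in NR4 unstimulated cells. Its groups did not overlap, but its adjusted p passed in only 6 of 15 alternative settings and that of Klhl42 in 8 of 15, and both were highest without NOD anti-IgM replicate 2 (0.16 and 0.14).

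Of 18 measured genes of the LRRK2 system 1 rose and 0 fell. Rilpl2, whose protein binds Rab GTPases phosphorylated by LRRK2, read 0.62 and 0.59 in NOD anti-IgM cells, against 0.00, -0.37 and -0.11 in NOD unstimulated cells, and 0.49, 0.33 and 0.51 in NR4 anti-IgM cells, against -0.31, -0.44 and -0.11 in NR4 unstimulated cells. It rose by 0.75 (SE 0.10, limma adjusted p = 0.011) and did not pass without NOD anti-IgM replicate 1 (0.061) or 2 (0.066). Lrrk1, the closest relative of Lrrk2, was at -0.10 (SE 0.10) to 0.00 over 3 probe sets, none of which passed. Rab3a 1459980_x_at, of the type that can bind other transcripts, was at -1.01 (SE 0.27, limma adjusted p = 0.14). Its other probe set, 1422589_at, was at -0.44 (SE 0.14, limma adjusted p = 0.24).

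In the other 7 lists no gene passed in either direction. The 22 measured genes of the surrogate light chain and of B cell development had a median of -0.06, with Bach2, a repressor of plasma cell fate, lowest in p at -0.34 (SE 0.08, limma adjusted p = 0.11) and Vpreb1 at 0.34 (SE 0.20, limma adjusted p = 0.68). Of the 14 genes of the EDAR pathway, Traf1, an NF-kB target, was at 0.87 (SE 0.20, limma adjusted p = 0.090), and the receptor gene Edar lay at 0.05 and 0.13. The smallest p elsewhere belonged to Sertad1 of the SERTA family at 0.56 (SE 0.18, limma adjusted p = 0.22), Nxpe3 at -0.34 (SE 0.11, limma adjusted p = 0.25), Agbl5 of the carboxypeptidases at 0.27 (SE 0.10, limma adjusted p = 0.36), Arg2 of the urea genes at -0.20 (SE 0.14, limma adjusted p = 0.74) and Wfdc3 of the WAP family at 0.12 (SE 0.15, limma adjusted p = 0.92).

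**Figure D5:**
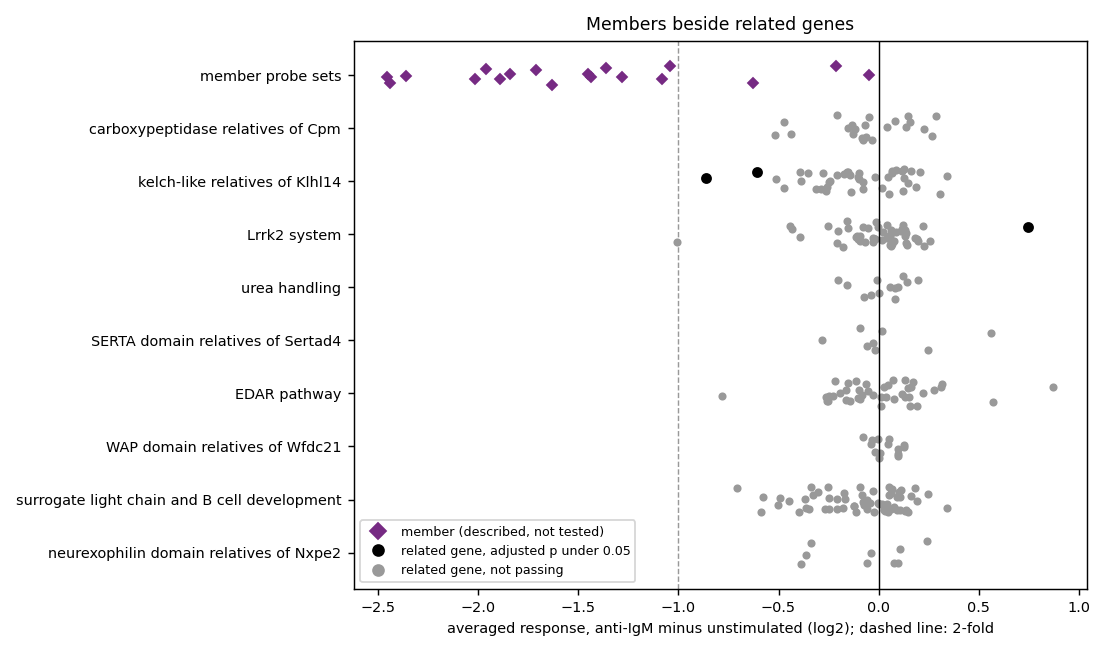
Averaged response (x axis, anti-IgM minus unstimulated, log2) of the 18 member probe sets in the top row and of the probe sets of 9 related gene lists below. Black points passed (Klhl42 and Klhl6 lower, Rilpl2 higher), grey points did not, and members are described without a test.

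The genes whose pattern over the 11 arrays was most like the mean of the 10 were found by Pearson correlation over all named probe sets. They were Bcl7a (0.98), Slc25a37 (0.98), Samhd1 (0.97), Cd37 (0.97), Mylip (0.97) and Rhoh (0.97), each with all its arrays shared with the members. This pattern is largely the anti-IgM difference itself, so their responses were used to choose them and are given with no test. Averaged over the strains, anti-IgM minus unstimulated was -1.51 (SE 0.11) for Bcl7a, a subunit of BAF chromatin remodelling complexes, and -0.85 (SE 0.12) for Slc25a37, the mitochondrial iron importer mitoferrin. It was -0.82 (SE 0.09) for the tetraspanin gene Cd37 and -0.76 (SE 0.12) for Rhoh, an atypical GTPase of blood cells. The smaller values were -0.65 (SE 0.10) for Mylip, a ubiquitin ligase for the LDL receptor, and -0.39 (SE 0.08) for the nucleotide hydrolase gene Samhd1.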

How the data were processed

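The authors deposited 1 table of 45101 probe sets for 11 arrays as log2-scale RMA values, per the submitters' processing notes (software version not given in the sources used here). The log base is not stated and was taken as 2. All 45101 medians over the arrays equal 0: the table was centred per probe set, and levels and detection are lost. No pair of arrays was identical, and array medians lay between -0.00105 and 0.0219. Precision is set by how few arrays there are.

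The 64 control probe sets were left out of the tests. Of the other 45037, 34945 have 1 symbol in the platform annotation, 932 several and 9160 none listed. One model of 4 group means (7 residual degrees of freedom) was fitted to all probe sets with limma 3.58.1 in R 4.3.3, with empirical Bayes moderation, two-sided tests, Benjamini-Hochberg adjustment within each comparison and a threshold of 0.05. Responses are anti-IgM minus unstimulated and strain differences NOD minus NR4. Averaged over the strains 456 probe sets passed, and 797 with the replicate number as a block. In NR4 alone 75 passed, and 222 with the block. The fitting steps were run on simulated data with planted effects and independent noise on each array. That run checks the recovery of such effects and says nothing of arrays that vary together, such as those of a lot. Promoters come from RefSeq (GRCm38.p6), and their motifs were chosen after the sequences had been seen.

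Same-numbered arrays deviated together at 0.60, 0.36 and 0.56 between unstimulated NOD and NR4. Between stimulated and unstimulated NR4 they did so at 0.32, 0.18 and 0.48. Numbers were taken as pairing there, but only in the replicate block, and the main fit used no pairing. NR4 anti-IgM replicate 2 was at 0.20 with NR4 unstimulated replicate 1, so its pairing with replicate 2, at 0.18, is not settled. The labels do not say that a number marks a lot. Stimulated NOD has 2 arrays, and pairing is not established for it. The members, the related lists and the rule for named genes were chosen with earlier results of these data known. That rule names all member probe sets, called members of each related list (otherwise the gene with the smallest p), 3 response genes and the 6 genes most like the members in pattern. Other genes of the related and marker lists, among them Rab3a, Lrrk1, Edar, Vpreb1 and Cd22, are named outside this rule. Alternatives were each array left out, a replicate block, quantile normalization, the median per gene, leaving out _s_at, _x_at and _a_at probe sets, fits of 2 groups alone and array weights. The 2 checks without NR4 anti-IgM replicate 1 and without the unstimulated NR4 arrays were added after seeing the data.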

Additional observations from a re-analysis of the deposited data

How the results depend on the processing

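The median response of the 18 probe sets stayed between -1.63 and -1.47 with each array left out and between -1.56 and -1.43 under the other settings. Of 840 alternative values of single responses 826 moved by less than 1 SD and 2 changed sign, among them the NOD response of Edaradd 1421213_at (-0.28), at 0.12 without NOD anti-IgM replicate 2. The SD is that of the probe set between arrays of a group, a wide limit for leaving out 1 array. The NR4 response of Cpm 1453009_at ran from -3.30 without NR4 unstimulated replicate 2 to -2.35 without replicate 3. For Slc14a1 1448640_at the NOD response was -1.78 without NOD anti-IgM replicate 1 and -0.53 without replicate 2. The replicate block called no strain difference or interaction of a member, and over 554 alternative values of these 0 passed and 30 had another sign, with a smallest adjusted p of 0.094 (limma, Edaradd 1433133_at unstimulated, array weights). Counts over all probe sets moved more. With the replicate block the averaged response counted 797 (456 without it) and NR4 222 (75). With 1 value per gene the averaged response counted 283, the unstimulated strain difference 11 (26 otherwise) and the averaged one 22 (53), from fewer features. Array weights gave 932 for the averaged response, 78 for NOD (20) and 113 for the unstimulated strains. The weights were 5.39 for NOD unstimulated replicate 2 and 4.45 for NR4 unstimulated replicate 2, and 0.44 to 0.96 for the other arrays. These 2 arrays also lay at the centring value 0 in the most probe sets, 25% and 22.6%, so results with array weights rest largely on them. Quantile normalization left 7 in NOD (4 higher and 3 lower, against 14 and 6) and 8 in NR4. Fits of 2 groups alone, with fewer arrays for the spread, gave 0 in NOD, 0 in NR4 and 17 for the unstimulated strains. With each array left out the counts were 69 to 389 (averaged response, lowest without NOD anti-IgM replicate 2), 0 to 10 (NOD, lowest without the same array), 6 to 57 (NR4, lowest without NR4 unstimulated replicate 1), 14 to 24 (unstimulated strains) and 26 to 40 (averaged strains). The interaction count was 0 in every setting. Where 1 stimulated NOD array was left it was taken to vary like the other groups. The median per gene was not applied to single probe sets. Other causes of these shifts were not tested.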

Other observations

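Besides 15 of the 18 probe sets, 43 others were lower by at least 2-fold averaged over the strains, 8 of these others with no single gene symbol. The following were picked after their values were seen, and no test is given. They include several genes of B cell signalling: Cd22, an inhibitory co-receptor, at -1.05 (SE 0.24), Rasgrp3, a Ras activator, at -1.05 (SE 0.13), and Slamf6, an adhesion and signalling receptor of lymphocytes, at -1.14 (SE 0.15) and -1.07 (SE 0.16). Slc15a2, a peptide transporter gene, was at -1.42 (SE 0.16), and Il12a, the p35 subunit of interleukin 12, at -1.21 (SE 0.17). Cnn3, a calponin gene, had 4 probe sets between -1.46 and -1.13. Gja1, which encodes connexin 43, had 3 between -1.41 and -1.11. The SE of these Cnn3 and Gja1 probe sets ran from 0.25 to 0.38. All those of Cnn3 and most of those of Gja1 are of the _x_at type, which can also bind other transcripts.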
